A study of Mus musculus with 39 samples.

Results

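Pnliprp1, the gene of pancreatic lipase-related protein 1, was followed in mouse liver under phenobarbital beside 7 genes of secreted pancreatic digestive proteins, Pnlip, Clps, Cel, Cpa1, Cpb1, Ctrb1 and Cela2a. The members were chosen by name with results of these data known. Pnliprp1 was included for its higher signal in treated arrays, and the digestive enzyme genes as marks of pancreas carried over into single arrays. A probe set was used when a member was its only gene symbol in the platform annotation. This gave 8 probe sets for 7 of the 8 members, of 18193 genes in all, and Pnlip had none. Clps had 2 probe sets and the other members 1 each. Because the choice rested on the treatment response, the treatment differences of the members are given as descriptions with no test.

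The liver RNA came from male B6C3F1/Crl mice, the offspring of C57BL/6 males and C3H/He females per the labels, and was hybridised to 39 Affymetrix mouse arrays. The mice were 29 to 32 days old when they arrived and had 5 days of acclimatisation. The treated groups drank water with phenobarbital at 0.05% (w/v) for 1, 7, 28 or 91 days, and untreated controls were taken at the same times. There were 4 arrays in the day 1 control group and 5 in each of the remaining 7 groups. Values are log2 signals as deposited, differences are phenobarbital minus control, and replicate numbers only name arrays. The labels do not state that arrays come from different animals, and the spread behind the p-values may therefore be partly technical.

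Exocrine acinar cells of the pancreas make digestive enzymes, many as inactive precursors, and pack them into zymogen granules that are released into the gut. Pancreatic lipase, encoded by Pnlip, splits dietary triglycerides with its cofactor colipase, and Pnliprp1 encodes a close relative with little or no lipase activity of its own. These genes are textbook markers of acinar cells and are not usual liver products. Pancreatic tissue lies close to the liver hilum, so acinar transcripts are also used to look for pancreas in dissected liver. Phenobarbital activates the nuclear receptor CAR in hepatocytes, and Cyp2b10, a cytochrome P450, is its classical target gene.

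Pnliprp1 lies between the other pancreatic lipase genes of mouse chromosome 19 (GRCm38.p6), at 58728887 to 58744169. Pnlip, at 58670365 to 58681799, ends 47088 bases before it, and Pnliprp2, at 58759723 to 58777534, starts 15554 bases after it. The 250 bases before the start of each are shown because these neighbours share a locus but not, as far as Pnliprp2 was measured, the treatment values of Pnliprp1. The sequences are from RefSeq, on the plus strand, with matches to the motifs searched in capitals.

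Pnliprp1, chr19:58728637-58728886: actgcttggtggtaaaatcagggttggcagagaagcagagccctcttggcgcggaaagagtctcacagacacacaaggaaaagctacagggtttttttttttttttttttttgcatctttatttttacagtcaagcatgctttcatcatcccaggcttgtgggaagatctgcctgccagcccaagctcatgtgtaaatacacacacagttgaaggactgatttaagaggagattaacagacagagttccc
Pnlip, chr19:58670115-58670364: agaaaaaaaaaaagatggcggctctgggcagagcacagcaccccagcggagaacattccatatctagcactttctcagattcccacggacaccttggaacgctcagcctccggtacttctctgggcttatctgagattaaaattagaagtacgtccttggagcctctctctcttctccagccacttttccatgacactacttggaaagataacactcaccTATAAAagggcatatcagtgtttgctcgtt
Pnliprp2, chr19:58759473-58759722: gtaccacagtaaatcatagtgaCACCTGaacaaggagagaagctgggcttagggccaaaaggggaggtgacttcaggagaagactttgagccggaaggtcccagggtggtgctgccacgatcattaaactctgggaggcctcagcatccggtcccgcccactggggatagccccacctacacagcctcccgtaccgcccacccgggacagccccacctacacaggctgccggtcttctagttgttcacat

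The motifs searched were the nuclear receptor sites AGGTCA and also AGTTCA, the E-boxes CACCTG and also CAGCTG, the box TTTCCC of the kind read by RBPJ proteins, all on both strands, and the TATA box TATAAA on the gene's strand. The Pnliprp1 window held none of these letters, which says nothing about any factor. The Pnlip window held TATAAA, found in 7.59% of the 32851 windows of this length, and the Pnliprp2 window held CACCTG, found in 17.2% of them. Over the 8 windows of Pnliprp2 and the members with an entry, CACCTG was found in 4 and TTTCCC in 4, against 21.9% of all windows for TTTCCC. The motif AGGTCA was found in 1 (14.0% of all windows), AGTTCA in 1 (11.8%) and CAGCTG in 1 (13.0%). A match is a description of the letters and not a binding site.

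Of the 7 hepatocyte markers measured, Alb, Ttr, Apoa1, Cps1, Cyp2e1 and Hnf4a lay above 12 on every array. In the probe set used, Ass1 was dimmer, at 6.61 to 10.12. On all arrays other than day 1 phenobarbital replicate 3, described next, Alb lay between 14.93 and 15.10 and Ttr between 14.79 and 14.95. On that array Alb was 15.08. Replicates of a group correlated at 0.989 to 0.996 over all probe sets, and array medians lay between 5.69 and 5.80. Precision was limited by how many arrays a group had.

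1 array, day 1 phenobarbital replicate 3, stood apart in the digestive enzyme genes. All 6 measured enzyme members lay more than 2 log2 units above their own median on this array, and 0 of 6 did so on any of the other 38. The chymotrypsinogen gene Ctrb1 reached 11.40 there and lay between 5.26 and 6.18 on the other arrays. The elastase gene Cela2a reached 11.37, against 4.81 to 6.42. The carboxypeptidase genes Cpb1 and Cpa1 reached 11.31 and 10.14, against 3.42 to 4.40 and 4.45 to 5.51. The lipid-digesting pair behaved in the same way. Cel, which encodes the bile salt-activated carboxyl ester lipase, reached 10.67 against 4.77 to 5.56. Clps, which encodes colipase, reached 10.11 against 5.29 to 5.94 in its brighter probe set and 10.47 against 2.91 to 3.53 in the dimmer one.

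**Figure D1:**
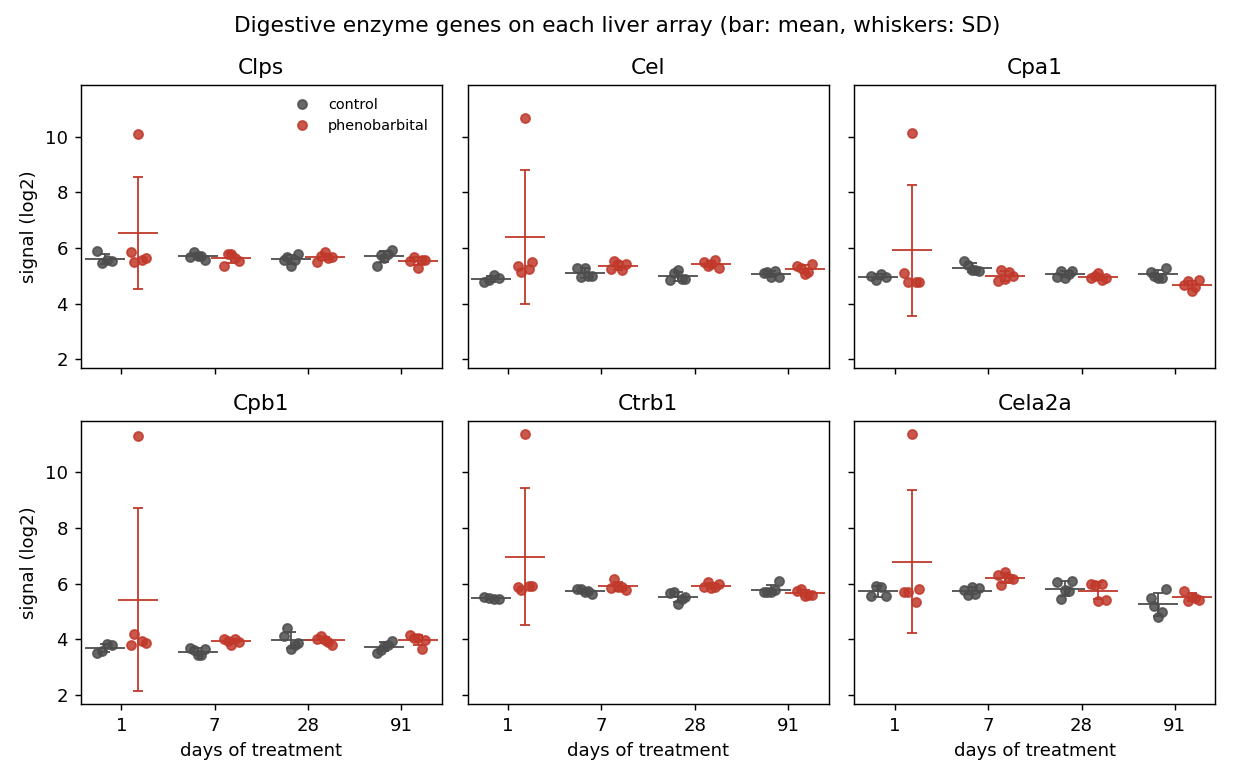
Log2 signal (vertical axis) of the 6 measured digestive enzyme genes on each array, by days of treatment (horizontal axis); points are arrays, bars group means and whiskers SD. In every panel a single phenobarbital point at day 1 lies above 10, and all other points lie below 6.5.

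Most genes that were high on this array and not on the other treated arrays of its day were products of the exocrine pancreas. Of all 18193 genes, 20 lay more than 2 log2 units above the highest of the other 4 treated arrays of day 1. Pnliprp1, the 6 enzyme members and 12 genes of a list of other acinar products made up 19 of them. The other gene was Dmbt1, a secreted scavenger receptor that was singled out after its value was seen. It was not on that list, which does not set it apart from acinar products. The members and the list were chosen with earlier results of these data known, so nothing is read from the 19. The number of genes more than 2 log2 units above all others of the group was 26 on day 7 phenobarbital replicate 3. Its median over the arrays other than day 1 phenobarbital replicate 3 was 0.

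Among the other acinar genes on that array, Reg1, a regenerating islet-derived protein made by acinar cells, was at 10.81 against 3.71 to 4.54 elsewhere. The trypsinogen gene Prss2 was at 11.31 against 6.12 to 6.88, the pancreatic ribonuclease gene Rnase1 at 10.39 against 4.25 to 5.24, and the zymogen granule gene Zg16 at 10.08 against 5.24 to 6.08. The mean of the 22 measured genes of the list was 8.44, against 5.42 to 5.62 in the other treated arrays of day 1 and 5.28 to 5.63 in controls, with 12 of the 22 more than 2 log2 units above the mean of those treated arrays. Kallikrein Klk1 was an exception at 6.84, with the other treated arrays of day 1 at a mean of 6.84.

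The transcription factor genes of acinar cells and the markers of other pancreatic cell types were not high on that array. Ptf1a was at 4.55 (4.23 to 4.75 elsewhere), Rbpjl at 6.11 (5.61 to 6.28) and Bhlha15 at 5.79 (5.43 to 6.99). The islet hormone genes Ins2, Gcg, Sst, Iapp and Ppy differed from the other treated arrays of day 1 by 0.17, 0.05, -0.03, 0.12 and 0.10, and the 9 islet markers had a mean of 4.92 against 4.87 to 4.98. The mean of 5 duct markers was 5.18 against 5.18 to 5.31, that of 4 adipocyte markers 4.67 against 4.58 to 4.66, and that of 8 gut markers 6.17 against 6.08 to 6.14. Of all these lists, 0 genes lay more than 2 log2 units above the other treated arrays. Whether pancreas was present in the sample was not tested.

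Pnliprp1 was high in every treated group. In the day 1 controls it was 5.84, 6.29, 5.60 and 4.91, and in the day 1 treated arrays 7.43, 6.99, 10.11, 7.43 and 7.14. All 5 treated arrays lay above the controls, and the 10.11 is that of the array with high digestive enzyme genes. The treated mean was 7.82 ± 1.29 (SD, n = 5) and the control mean 5.66 ± 0.58 (SD, n = 4), so the difference was 2.16 (SE 0.39). Without that array the 4 treated arrays averaged 7.25 ± 0.22 (SD, n = 4), all of them still above every control, and the difference was 1.59 or 3.00-fold. On that array Pnliprp1 exceeded its mean in the other treated arrays by 2.86, and the 6 enzyme genes exceeded theirs by 4.47 to 7.36. Those means were 7.25 for Pnliprp1 and 3.95 (Cpb1) to 5.87 (Ctrb1) for the enzyme genes. The log2 excesses therefore start from unlike levels.

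After 7 days Pnliprp1 was 5.13, 5.25, 5.76, 5.20 and 6.06 in controls and 8.68, 8.96, 10.21, 9.78 and 9.60 in treated arrays. The groups were far apart, and the difference was the highest of the 4 times at 3.96 (SE 0.36), from 5.48 ± 0.41 to 9.44 ± 0.62 (SD, n = 5 each) or 15.6-fold. The highest value came from replicate 3, the array with 26 genes above the others of its group, and without it the difference was 3.77.

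After 28 days the controls were 4.50, 4.95, 4.59, 4.58 and 4.88 and the treated arrays 7.91, 8.45, 8.07, 7.37 and 7.98. The difference was 3.25 (SE 0.36), from 4.70 ± 0.20 to 7.95 ± 0.39 (SD, n = 5 each), or 9.54-fold. After 91 days the controls were 4.36, 4.88, 4.54, 5.08 and 5.16 and the treated arrays 8.26, 7.55, 8.20, 8.21 and 7.66. The difference of 3.17 (SE 0.36), from 4.80 ± 0.34 to 7.98 ± 0.34 (SD, n = 5 each) or 9.03-fold, was close to that of day 28, and the treated ranges of those days overlapped.

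The lowest of all 20 treated arrays, at 6.99, lay above the highest of all 19 controls, at 6.29. Among genes tested, all treated arrays lay above all controls in 12.8% at day 1, 3.61% at day 7, 5.8% at day 28 and 2.54% at day 91, and since Pnliprp1 was chosen for this pattern nothing is read from those shares. In place on the array, Pnliprp1 lay between the 24.0th and 58.0th percentile of all probe sets in controls and between the 67.9th and 92.9th in treated arrays. Only 3 of 19 controls were above their array's median, so the size of the fold changes rests on dim control signals. In the order of treated groups, day 7 was highest, with each array above each array of days 28 and 91. Days 91 and 28 overlapped, and day 1, without the array with high digestive enzyme genes, was lowest and overlapped day 28 at its upper end.

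**Figure D2:**
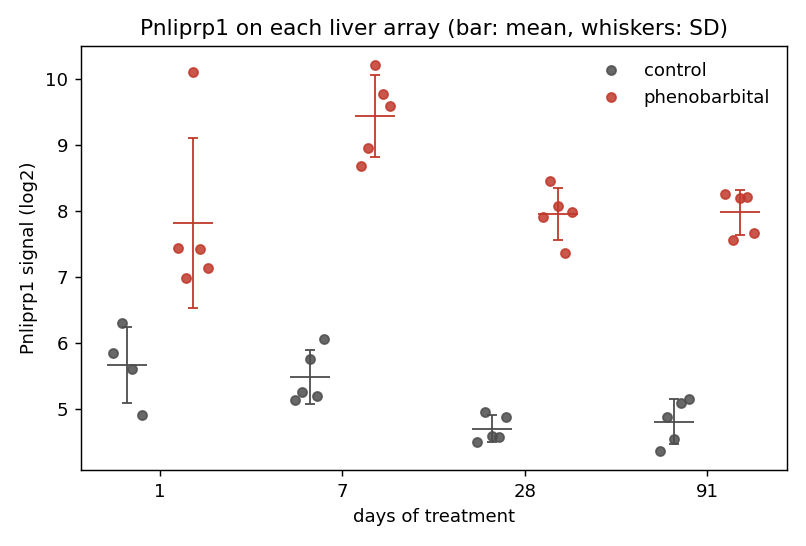
Log2 signal of Pnliprp1 (vertical axis) on each array by days of treatment (horizontal axis), with controls in grey and phenobarbital in red; bars are means and whiskers SD. Every treated point lies above every control point, and the day 1 point at 10.11 is the array on which the digestive enzyme genes were high.

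The differences of the digestive enzyme genes were small at the later times. At day 7 the 6 enzyme genes differed from controls by -0.30 (Cpa1) to 0.46 (Cela2a), with a median of 0.22. At day 28 they differed by -0.11 (Cpa1) to 0.43 (Cel), with a median of 0.04, and at day 91 by -0.38 (Cpa1) to 0.25 (Cela2a), with a median of 0.03. At day 1 the differences were 0.93 (Clps) to 1.75 (Cpb1) with all arrays and -0.10 (Cpa1) to 0.43 (Cel) without replicate 3.

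All treated arrays lay above all controls for Ctrb1 and Cel at day 1, for Cpb1 and Cela2a at day 7 and for Ctrb1 and Cel at day 28, that is 2 of 6 genes each time, and for 0 of 6 at day 91. Over all 18193 genes with no filter that share was 12.4%, 3.96%, 6.19% and 3.02%. All treated arrays lay below all controls for 0 of 6 enzyme genes at days 1, 7 and 28, against 9.95%, 6.29% and 7.19% of all genes, and for Cpa1 at day 91, against 7.54%. The dimmer probe set of Clps was not part of these counts. Its treated arrays all lay above all controls at day 1 (difference 0.18 without replicate 3) and at day 28 (0.26). At days 7 and 91 it differed by 0.14 and 0.07, with overlap. The separated groups lay close together. Cel, for example, was 4.98 ± 0.16 in controls and 5.41 ± 0.11 in treated arrays at day 28 (SD, n = 5 each). Cpb1 lay below the lower quartile of the array on 38 of 39 arrays, and Cpa1 and Cel lay above the array median on 1 array only, the one that stood apart.

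Pnliprp1 and the enzyme genes were set side by side on each array. On the other 19 treated arrays Pnliprp1 exceeded the control mean of its day by 1.33 to 4.73, whereas the mean of the 6 enzyme genes differed from its control mean by -0.11 to 0.24. In controls that enzyme difference ranged from -0.13 to 0.23, the highest being day 91 control replicate 5. Within days the treated values lay somewhat higher at the first 3 times. At day 1, replicate 3 left out, they were 0.0800 to 0.234, against -0.035 to 0.0768 in controls, and the groups did not overlap. They were 0.0731 to 0.244 against -0.076 to 0.101 at day 7 and 0.0182 to 0.202 against -0.13 to 0.0873 at day 28, with overlap. At day 91 they were -0.11 to 0.0911, inside the control range of -0.13 to 0.234. On day 1 replicate 3 Pnliprp1 exceeded the control mean by 4.44, and the single enzyme genes did so by 4.51 (Clps) to 7.64 (Cpb1). The enzyme genes correlated with each other over the 39 arrays, with Pearson r between 0.908 and 0.978 for the 15 pairs, and between -0.33 and 0.57 (median 0.15) over the 38 arrays without that one. Pnliprp1 correlated with the enzyme genes at 0.201 to 0.449 over 39 arrays and -0.41 to 0.66 over 38. These arrays share the treatment and time groups, and the correlations are a description. In whole liver, a change in the number of cells that make a transcript and a change in transcript per cell cannot be told apart.

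**Figure D3:**
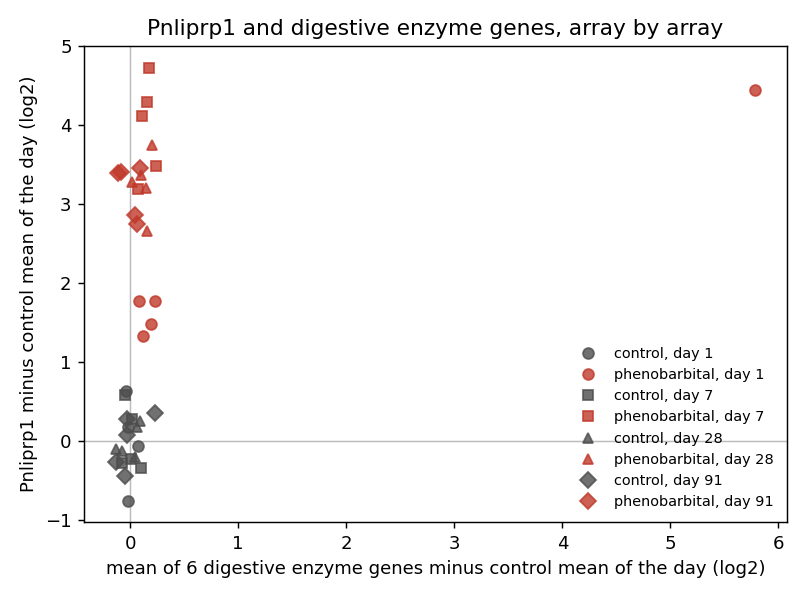
Each point is an array, with the mean of the 6 digestive enzyme genes minus its control mean of the day on the horizontal axis and Pnliprp1 minus its control mean of the day on the vertical axis (both log2). Controls (grey) lie around 0 on both axes, 19 phenobarbital arrays (red) lie 1.33 to 4.73 higher in Pnliprp1 at an enzyme difference of at most 0.24, and the point at far right is day 1 replicate 3.

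Change over time in untreated liver was not used to choose the members and was tested. Pnliprp1 and Ctrb1 each lay above the array median on only 3 of 19 controls, so they passed the filter on dim genes through treated arrays. Pnliprp1 in controls averaged 5.66, 5.48, 4.70 and 4.80 at days 1, 7, 28 and 91. The limma F test over the 4 control groups gave an adjusted p of 0.0510 (Benjamini-Hochberg), in a comparison that called 66.0% of the 12580 genes tested. With no filter its adjusted p was 0.0583, and 51.1% of the 18193 genes were called. The change from day 1 was -0.18 at day 7 (SE 0.39, limma adjusted p = 0.738), -0.96 at day 28 (SE 0.39, adjusted p = 0.0742) and -0.86 at day 91 (SE 0.39, adjusted p = 0.0788). Of all genes tested, 11.8% were called lower at day 28 and 16.6% at day 91.

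That result depended on the array with high digestive enzyme genes, which is not a control but enters the estimate of spread that all groups share. Without day 1 phenobarbital replicate 3 the F test gave an adjusted p of 0.00208, and the same changes at days 28 and 91 had adjusted p = 0.00694 and 0.00968 in limma. Leaving out single controls gave F-test adjusted p-values from 0.0235 (without day 1 control replicate 4) to 0.121, and the value was also under 0.05 without day 91 control replicate 5 (adjusted p = 0.0476).

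Of the 6 enzyme genes, 3 passed the filter on dim genes, which were Cela2a, Ctrb1 and Clps. Their limma F tests over the control groups gave adjusted p = 0.764, 0.928 and 0.992. Of the 4 members tested 0 were called, and 1 had an unadjusted p under 0.05. Without day 1 phenobarbital replicate 3, 3 of the 4 were called (Pnliprp1, Cela2a and Ctrb1), beside 66.0% of all genes. With that array left out and no filter, 5 of the 7 measured members were called, beside 51.0% of 18193 genes. Those called were Pnliprp1, Ctrb1, Cela2a, Cpb1 and Cpa1, with F-test adjusted p of 0.00240, 0.00270, 0.00635, 0.0112 and 0.0158 in limma, and Cel and Clps had 0.188 and 0.655.

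The other acinar genes were tested for the treatment difference. Of 32 on the list, 22 had a probe set of their own and 10 passed the filter. At day 1, 4 of 10 rose and 0 fell, which were Tff2 (trefoil factor 2, 0.50, SE 0.14, adjusted p = 0.00592), Sycn (syncollin of zymogen granules, 0.58, SE 0.21, adjusted p = 0.028), Prss2 (1.30, SE 0.49, adjusted p = 0.038) and Zg16 (1.14, SE 0.45, adjusted p = 0.048), all by limma. Their list had a median of 0.58 against 0.01 over all genes tested, of which 15.8% were higher and 16.7% lower. Without replicate 3, 2 of 10 remained called, Prss2 (0.36, SE 0.11, adjusted p = 0.013) and Tff2 (0.35, SE 0.13, adjusted p = 0.031), beside 16.4% of all genes. Tff2 had also been named a gut marker, so its calls do not point to acinar cells alone. Leaving out single arrays of that day gave 1 to 7 higher genes. The list was chosen with earlier results of these data known, and replicate 3 is a treated array of day 1. Nothing is therefore read from the day 1 count with all arrays.

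At the later times few other acinar genes were called. The tests used the spread shared by all groups, which includes day 1 phenobarbital replicate 3. For genes high on that array the SE was large, at 0.46 for Prss2 and 0.42 for Zg16. At day 1 without that array their SEs were 0.11 and 0.13. For Klk1, which was not high there, the SE was 0.08 at the later times and 0.09 at day 1 without it. Few calls therefore do not show that the list was unchanged. At day 7 Cela1, an elastase gene with signals from 9.58 to 11.61 on the arrays other than day 1 replicate 3, fell by 0.71 (SE 0.25, adjusted p = 0.044) and 0 of 10 rose, beside 5.64% higher and 11.4% lower among all genes. At day 28 Klk1 rose by 0.22 (SE 0.08, adjusted p = 0.034), beside 11.2% higher and 18.1% lower. At day 91 the phospholipase gene Pla2g1b fell by 0.50 (SE 0.13, adjusted p = 0.005), beside 4.62% higher and 16.1% lower. The medians of the list were -0.02, 0.13 and -0.16 at days 7, 28 and 91, and those of all genes -0.05, -0.02 and -0.07.

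Of all genes tested, 15.8% were higher and 16.7% lower at day 1, 5.64% and 11.4% at day 7, 11.2% and 18.1% at day 28, and 4.62% and 16.1% at day 91, and the counts of the following lists stand beside these shares. Of the 6 acinar transcription factor genes 5 were tested. Gata6 fell at day 1 (by 0.31, SE 0.11, adjusted p = 0.029) and Nr5a2, which is also a liver gene, fell at day 28 (by 0.37, SE 0.10, adjusted p = 0.00546). At days 7 and 91, 0 were called by limma and 0 had an unadjusted p under 0.05. Bhlha15 and Rbpjl were called at none of the 4 times, and Ptf1a, which did not pass the filter, was called at none with no filter. Of 3 islet markers tested Ins2 rose at day 1 by 0.26 (SE 0.09, adjusted p = 0.028) and Pdx1 fell at day 91 by 0.29 (SE 0.09, adjusted p = 0.026). Ins2 lay at 6.02 to 6.61 on the arrays other than day 1 phenobarbital replicate 3, not far above array medians of 5.69 to 5.80. Of 3 duct markers, which bile ducts share, Krt19 fell at day 7 by 0.31 (SE 0.11, adjusted p = 0.044) and Epcam rose at day 28 by 0.57 (SE 0.12, adjusted p = 0.001). Of 3 gut markers, Tff2 not among them, Fabp2 fell at day 91 by 0.54 (SE 0.17, adjusted p = 0.023). The 1 adipocyte marker tested was called at no time. Of 7 hepatocyte markers 2 fell at day 1 and 2 at day 28, which were Ass1, a urea cycle enzyme gene, Cyp2e1 and the apolipoprotein gene Apoa1. Ass1, dimmer than the other hepatocyte markers in the probe set used, fell by 1.22 at day 1 and fell by 1.49 at day 28. Its day 28 controls were spread widely, at 8.58 ± 1.10 (SD, n = 5), from 7.04 to 10.12. Cyp2e1 fell by 0.13 at day 1, and Apoa1 fell by 0.06 at day 28.

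Where a list had no call at a time, the genes with the smallest p had these differences. Of the acinar factors, Gata4 differed by -0.25 and Gata6 by -0.10 at day 7, and Gata4 by -0.27 and Rbpjl by -0.16 at day 91. Of the islet markers, Sst differed by 0.09 and Ins2 by 0.11 at day 7, and Pdx1 by 0.11 and Ins2 by 0.09 at day 28. Of the duct markers, Epcam differed by 0.22 and Krt19 by 0.06 at day 1, and Krt19 by -0.11 and Epcam by 0.12 at day 91. Of the gut markers, Gkn1 differed by 0.28 and Fabp2 by -0.24 at day 1, Alpi by 0.09 and Gkn1 by 0.07 at day 7, and Gkn1 by 0.26 and Fabp2 by -0.28 at day 28. The adipocyte marker Retn differed by -0.04 to 0.05 over the 4 times. Of the hepatocyte markers, Cps1 differed by 0.07 and Ass1 by -0.47 at day 7, and Ttr by -0.03 and Cyp2e1 by 0.03 at day 91. All adjusted p-values of these differences were 0.101 or more in limma.

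The pancreatic lipase gene family was compared with Pnliprp1 gene by gene. Its neighbour Pnliprp2, a pancreatic lipase relative that also acts on galactolipids, did not pass the filter. Pnliprp2 was 4.46 ± 0.11 (SD, n = 4) in day 1 controls and 5.39 ± 1.43 (SD, n = 5) in treated arrays, with 7.87 on replicate 3 and 4.25 to 5.33 on every other array. With no filter its day 1 difference of 0.92 was called (SE 0.34, adjusted p = 0.0389 in limma), as were 14.4% of all genes higher, and without replicate 3 the difference was 0.30 (adjusted p = 0.119). At days 7, 28 and 91 it differed by -0.23, 0.22 and -0.08 (SE 0.32 each), with adjusted p of 0.672, 0.650 and 0.889. These later values come from the fit that includes replicate 3 in the shared spread. Without replicate 3 the day 1 SE was 0.14, so the later p-values do not show that Pnliprp2 was unchanged.

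Liph, a phosphatidic acid phospholipase gene, did not pass the filter either and differed by 0.27, 0.32, 0.36 and 0.37 at the 4 times. With no filter it rose at day 28 (SE 0.11, adjusted p = 0.0179) and at day 91 (SE 0.11, adjusted p = 0.0199), as did 11.9% and 5.31% of all genes, and at days 1 and 7 its adjusted p was 0.0852 and 0.0535 in limma.

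Of the other lipases of the family 3 passed the filter, Lipg, Lpl and Pla1a. Endothelial lipase Lipg fell at day 28 by 0.73 (SE 0.25, adjusted p = 0.025). Lipoprotein lipase Lpl rose at day 91 by 0.97 (SE 0.15, adjusted p = 1.39e-05), from 9.29 ± 0.34 to 10.26 ± 0.17 (SD, n = 5 each). At days 1 and 7, 0 of the 3 were called by limma and 1 had an unadjusted p under 0.05 each time (Lipg -0.55 at day 1 and Pla1a -0.23 at day 7). Lpl in controls was 12.96 at day 1 and 12.49 at day 7, well above its day 91 mean. Pla1a, a phosphatidylserine phospholipase, was called at none of the times.

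**Figure D4:**
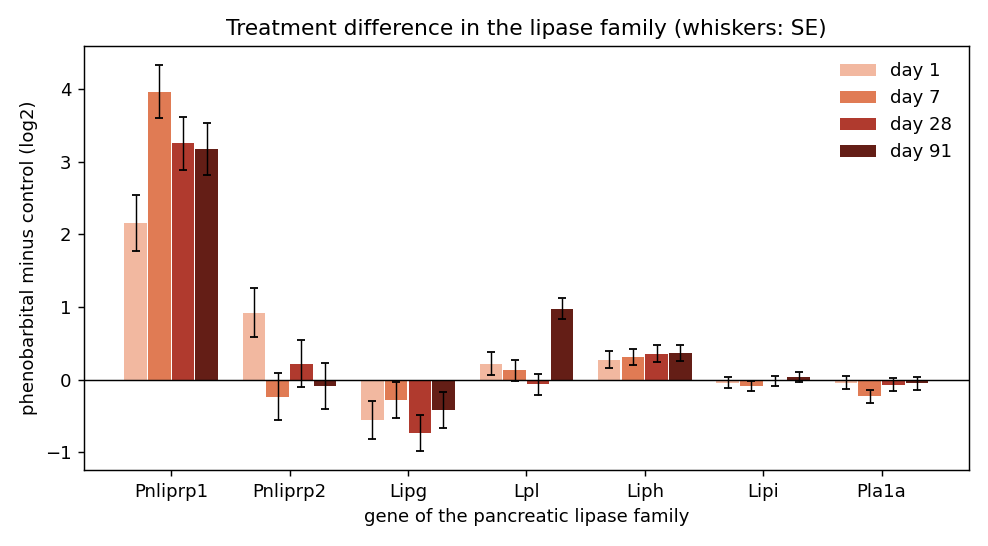
Phenobarbital minus control (log2, vertical axis) at the 4 times for Pnliprp1 and 6 other genes of the pancreatic lipase family (horizontal axis); whiskers are SE, taken for Pnliprp2, Liph and Lipi from the fit with no filter. Pnliprp1 differs by 2.16 to 3.96, Lpl by 0.97 at day 91, Liph by 0.27 to 0.37, and Pnliprp2 by 0.92 at day 1, a value that includes the array with high digestive enzyme genes.

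Among 13 intracellular acylglycerol and ester hydrolases 3, 4, 3 and 3 genes rose and 2, 0, 1 and 1 fell at days 1, 7, 28 and 91. Of all genes tested, 15.8%, 5.64%, 11.2% and 4.62% were called higher and 16.7%, 11.4%, 18.1% and 16.1% lower at those times. The carboxylesterase Ces1d rose at each time (by 0.55, 0.41, 0.38 and 0.30, adjusted p of 0.000344, 0.00737, 0.00712 and 0.0395). Abhd5, the coactivator of adipose triglyceride lipase, rose by 0.45, 0.81 and 0.77 at days 1, 7 and 28 and differed by 0.14 at day 91 (adjusted p = 0.444). Pnpla3, a lipid droplet acyl hydrolase, rose by 1.55 at day 28 (SE 0.39, adjusted p = 0.003) and by 1.30 at day 91 (SE 0.39, adjusted p = 0.016). Pnpla2, which encodes adipose triglyceride lipase, rose by 0.36 at day 1 and fell by 0.47 at day 91. The carboxylesterase Ces1g rose by 0.59 at day 7 and by 0.44 at day 91. The phospholipase Pnpla8 fell by 0.28 at day 1, rose by 0.19 at day 7 and fell by 0.24 at day 28, and the arylacetamide deacetylase Aadac fell by 0.15 at day 1.

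Of the 10 protein-coding genes nearest to Pnliprp1 by order, 5 on either side, 8 had a probe set of their own and 3 passed the filter. Atrnl1 and Shtn1 fell at days 1, 7 and 28 (Atrnl1 by 0.39, 0.27 and 0.42, Shtn1 by 0.55, 0.28 and 0.31), with adjusted p of 0.0251 or less in limma, and differed by 0.00 and -0.03 at day 91. Of all genes tested, 16.7%, 11.4% and 18.1% were called lower at days 1, 7 and 28. The third, Gfra1, was called at no time. At day 91, 0 of the 3 were called by limma and 0 had an unadjusted p under 0.05. The remaining 5 were dim. With no filter, 1700019N19Rik fell by 0.32 at day 91 (SE 0.09, adjusted p = 0.0112), as did 13.6% of all genes, and Ccdc172, Hspa12a and Eno4 were called at no time.

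The 10 tested genes most like Pnliprp1 were chosen by Pearson correlation over the 39 arrays, so their treatment differences are a description too. They were 1700067K01Rik (0.927), Smpd3 (0.908), Cyp2c50 (0.904), Cyp2b10 (0.897), Cyp2c54 (0.892), Gstm3 (0.891), Cyp2c37 (0.885), Ccn4 (0.884), Prg4 (0.882) and Cyp2c55 (0.877). Smpd3 encodes a neutral sphingomyelinase, Gstm3 a glutathione transferase and the Cyp2 genes cytochromes P450. Over the 38 arrays without day 1 replicate 3 the first 2 had r of 0.944 and 0.943 and remained first and second. Like Pnliprp1, 6 of the 10 differed most at day 7. They were 1700067K01Rik (2.51, 3.42, 2.91 and 2.64 at the 4 times), Smpd3 (1.24, 2.37, 2.08 and 1.85), Cyp2c50, Cyp2c54, Cyp2c37 and Cyp2c55. Cyp2b10 differed by 6.21, 6.36, 6.90 and 5.64 and so was near its full difference at day 1. It lay between 13.97 and 14.21 in all day 1 treated arrays, replicate 3 included. The enzyme genes that passed the filter ranked 874 (Cela2a), 1011 (Ctrb1) and 1729 (Clps) by the same measure.

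**Figure D5:**
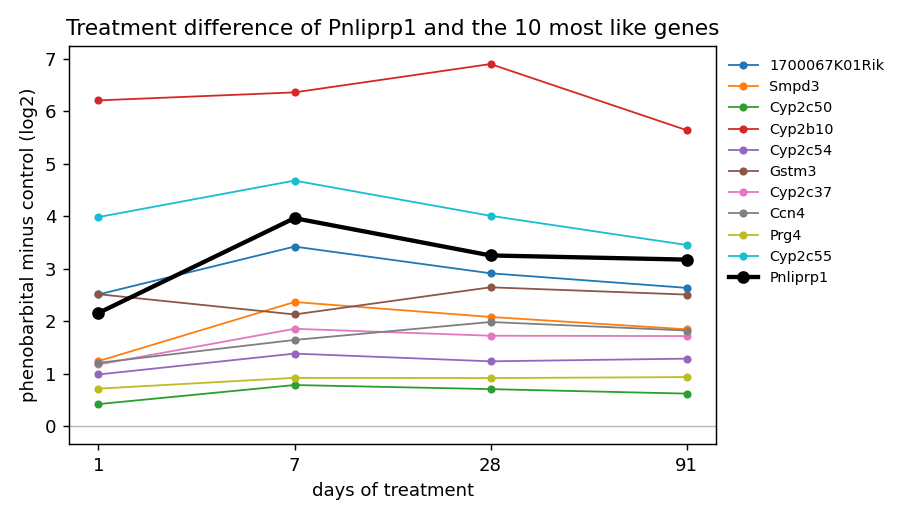
Phenobarbital minus control (log2, vertical axis) at 1, 7, 28 and 91 days (horizontal axis, not to scale) for Pnliprp1 (black) and the 10 genes most like it over 39 arrays (colours). Pnliprp1 and 6 of the 10 genes are highest at day 7, Cyp2b10, Gstm3 and Ccn4 at day 28 and Prg4 at day 91.

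The 10 genes most like the mean of the 6 enzyme genes, members left out, were Reg1, Reg2, Prss2, Rnase1, Zg16, Ctrl, Prss3, Reg3a, Gp2 and Reg3b, with r from 0.957 (Reg3b) to 0.983 (Reg1) over 39 arrays. All 10 are on the list of other acinar genes. They were drawn from all genes and 7 of them did not pass the filter, so only the remaining 3 could have entered the list of genes most like Pnliprp1. Without day 1 replicate 3 their r fell to between -0.03 (Reg3b) and 0.67 (Zg16), so the likeness rested on that array.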

How the data were processed

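Labelled RNA from whole liver was measured on 39 Affymetrix mouse arrays in 8 groups. The authors deposited log2 signals, whose array means, between 6.22 and 6.26, were nearly equal. The submitters' processing notes name GCOS. How signals were summarized and normalized is not given in the sources used here. The labels' treatment protocol mentions 28 days, and the durations given per sample were used. Of 45101 probe sets, 34945 had 1 gene symbol in the platform annotation and were used, 932 had several, 9160 had none and 64 were controls. For each gene the probe set of highest mean signal was taken. Tests were limited to genes above the array median on at least 4 arrays, which 12580 genes did and 5613 did not. Genes under this filter took their values from a fit with no filter.

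A mean per group was fitted in limma 3.58.1 under R 4.3.3 with a variance prior that follows mean signal, on 31 residual and 4.46 prior degrees of freedom. P-values are 2-sided with Benjamini-Hochberg adjustment over all genes of a comparison, called under 0.05. The members and lists were chosen with earlier results of these data known. Named were all members, Cyp2b10, neighbours, up to 6 called genes of a list per day by p (without a call, the 2 of smallest p), and the 10 most alike genes. The fit was tested on simulated data. Other settings tried were 2 normalizations, the filter, probe set averages, variance priors, array weights, separate fits and leaving out arrays.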

Additional observations from a re-analysis of the deposited data

Results flagged for a closer look

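A sample far from the others of its group drew attention to 8 of the 56 combinations of a member and a group. Chance gives about 5% of groups, but the enzyme genes were chosen as marks of pancreas in single arrays. Nothing is therefore read from that share. Of the 8 combinations, 7 are the same array, day 1 phenobarbital replicate 3. Its values were 10.11 for Pnliprp1 (the other treated arrays at 6.99 to 7.43), 10.14 for Cpa1 (4.76 to 5.11), 11.31 for Cpb1 (3.80 to 4.18), 11.37 for Cela2a (5.35 to 5.79), 11.40 for Ctrb1 (5.78 to 5.92), 10.11 for Clps (5.48 to 5.87) and 10.67 for Cel (5.14 to 5.49). The remaining value is Ctrb1 on day 91 control replicate 5, at 6.08 with the other controls at 5.69 to 5.76.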

How the results depend on the processing

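The treatment difference of Pnliprp1 stayed positive under each of the alternatives run, at 1.59 to 2.37 (day 1), 3.77 to 4.16 (day 7), 3.13 to 3.40 (day 28) and 3.06 to 3.28 (day 91) when single arrays were left out. The median difference of the enzyme genes at day 1 went from 1.28 to 0.15 without replicate 3. Of the 4 members tested, 0 were called for change over time in controls with all arrays and 3 without day 1 phenobarbital replicate 3. Of all genes tested, 66.0% were called each time. With no filter and that array left out, an alternative chosen after seeing the data, 5 of 7 were called, beside 51.0% of all genes. The members called numbered 3 with only the control arrays, 1 with a stricter filter, 1 with array weights and 0 to 1 without single controls. For these settings the share of all genes is not given, and nothing is read from their counts. Other acinar genes higher at day 1 numbered 4, but 7 after quantile normalization, 1 with the mean of all probe sets, 2 without replicate 3, 0 with a stricter filter, 2 with a robust prior, 1 with only the arrays compared, and 1 to 7 without single arrays. The 1 lower at day 7 became 0 with arrays centred on their median, a robust prior or only the arrays compared, and 0 to 1 without single arrays. The 1 higher at day 28 became 0 with the mean of all probe sets or a stricter filter, 2 without replicate 3 of day 1, and 0 to 1 without single arrays. The 1 lower at day 91 became 0 with the mean of all probe sets or a stricter filter and 2 with array weights. Over the other lists together, centring arrays on the median took the 7 genes lower at day 1 to 4 and the 3 lower at day 7 to 0. The 4 higher at day 28 became 8 with the mean of all probe sets, and the 3 lower at day 91 became 6 with no filter and 6 with array weights. Leaving out single arrays gave 1 to 4 lower at day 7, 2 to 5 higher at day 91 and 1 to 4 lower at day 91 in those lists. The causes were not tested. No paired analysis was run, because the labels link no treated array to a control array. Dim signals limit the size of fold changes of Pnliprp1 and of the enzyme genes.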
